A study of Mus musculus with 12 samples.

Results

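The LSM1-FLAG pull-down was compared with its own input in mouse zygotes, using the 2 libraries of RNA recovered on anti-FLAG beads (FLAG IP) and the 2 libraries of lysate RNA (FLAG Input), which are 4 of the 12 samples of the series. Samples were chosen by their labels, and the 4 libraries of the matching control pull-down were set beside them, with a test of the difference only where one is named. B6D2F1 females of 8 to 10 weeks were super-ovulated with 7 IU of PMSG and, 48 h later, 5 IU of hCG, and were then mated. Zygotes were taken at 18 to 20 h after hCG and injected with mRNA, which for both FLAG groups was Lsm1_3XFlag mRNA. For both control groups the treatment label names untagged Lsm1 mRNA while the titles name IgG, so the control is called here only the control pull-down. What was pulled down is therefore tagged LSM1 made from injected mRNA, not the protein at its own level, and each library comes from pooled cells, which the study's methods call zygotes in one place and oocytes in another.

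LSM1 is the subunit that sets the cytoplasmic LSM1-7 ring apart from the nuclear LSM2-8 ring. The LSM1-7 ring binds the 3′ end of RNAs whose poly(A) tail has been shortened, and with PAT1 it hands them on to decapping by DCP2 and decay by the exonuclease XRN1. In oocytes and zygotes this route works on a large store of maternal mRNA, part of which is cleared around fertilization. Small nucleolar RNAs (snoRNAs), by contrast, have no poly(A) tail and guide the chemical modification of ribosomal RNA, box H/ACA snoRNAs for pseudouridylation and box C/D snoRNAs for ribose methylation.

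The question of the comparison was which RNAs are held on the beads at a higher share than they have in the lysate. Repeats and snoRNAs held the largest shares of calls among the RNA classes, and sequences from both are shown first. The major satellite, the tandem repeat of mouse pericentromeric heterochromatin, is counted here as the consensus GSAT_MM, which stands for all genomic copies and has no position of its own. The study measured it by PCR with the following primer pair, shown to identify the RNA (lower case, 5′ to 3′, no base singled out).
MajSat-F: tggaatatggcgagaaaactg
MajSat-R: aggtccttcagtgggcattt

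The 5 snoRNAs that follow are shown because the 2 kinds of snoRNA behaved differently in the pull-down: the 2 H/ACA snoRNAs with the smallest unadjusted p (several share the smallest adjusted p), and the 3 C/D snoRNAs with the highest mean level in the FLAG Input, a choice made after the values were seen. Sequences were read from GRCm38.p6, which is the mm10 build of the files, and are written 5′ to 3′ on the strand of the gene. Capitals mark an ACA within the last 10 bases in the H/ACA snoRNAs, and in the C/D snoRNAs a TGATGA (box C) within the first 15 bases and a CTGA (box D) within the last 15 bases, searched on the gene's strand only.
Snora15 (chr5:129794561-129794676, plus strand): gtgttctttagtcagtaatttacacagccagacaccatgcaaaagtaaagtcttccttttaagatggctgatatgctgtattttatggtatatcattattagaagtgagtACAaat
Snora65 (chr2:32963301-32963418, plus strand): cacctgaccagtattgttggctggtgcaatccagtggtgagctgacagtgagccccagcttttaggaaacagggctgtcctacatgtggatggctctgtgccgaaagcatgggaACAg
Snord15b (chr7:99479563-99479707, minus strand): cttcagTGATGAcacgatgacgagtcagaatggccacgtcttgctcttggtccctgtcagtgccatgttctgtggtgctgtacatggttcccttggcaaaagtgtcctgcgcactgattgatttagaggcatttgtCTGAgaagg
Snord22 (chr19:8725866-8725991, plus strand): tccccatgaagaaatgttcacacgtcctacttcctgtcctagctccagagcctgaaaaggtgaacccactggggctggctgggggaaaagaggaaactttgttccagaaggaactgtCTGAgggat
Snord87 (chr1:9942470-9942543, minus strand): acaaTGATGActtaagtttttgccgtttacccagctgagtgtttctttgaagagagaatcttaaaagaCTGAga
Of the 117 snoRNAs whose sequence could be read, 31.6% held the ACA and 20.5% held both boxes. Among those named Snora the ACA stood in 34 of 36, and among those named Snord in 2 of 70, while both boxes stood in 17 of 70 of the latter. These letters are a description of the genes and not a mapped site.

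The FLAG IP libraries held 9865512 and 14010414 estimated counts and the FLAG Input libraries 25666767 and 27934361. The 2 FLAG IP libraries were unlike each other. Over 17002 features with at least 10 counts in the IP or the Input of each replicate, log2(CPM + 1) of the 2 Inputs correlated at a Pearson r of 0.988, while the 2 IPs correlated at 0.832 and FLAG IP replicate 1 correlated with its own Input at 0.726. These are descriptions across genes, which are not independent. The trimmed-mean (TMM) scaling factor was 1.67 for FLAG IP replicate 1 and lay between 0.825 and 0.861 in the other 3 FLAG libraries. CPM are edgeR's library-size-scaled counts after that correction, within the 4 FLAG libraries and, separately, within the 4 control libraries. A log2 IP/Input of a single replicate adds 0.5 counts to each library. Each replicate is given on its own. Counts without 1 FLAG IP library rest on a FLAG IP arm of 1 library, which is assumed to vary as the Inputs do, and are given as descriptions.

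Lsm1 itself, the injected RNA (chromosome 8, 25785318 to 25803975), behaved differently in the 2 replicates. It stood at 6767 and 144078 CPM in the FLAG IP and at 11534 and 17855 CPM in the FLAG Input. The IP/Input ratio was thus 0.587 in replicate 1 and 8.07 in replicate 2, on either side of 1. The pooled log2 ratio was 2.36 ± 9.54 (SE, n = 2 and 2) and did not pass the test (adjusted p = 0.864, edgeR), while it was 3.33 without FLAG IP replicate 1 and -1.36 without FLAG IP replicate 2. In the control libraries Lsm1 lay between 16.8 and 22.8 CPM, so an excess of Lsm1 RNA was seen in the FLAG libraries and not in the control libraries, whose treatment label also names Lsm1 mRNA.

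Repeats took a far larger share of the beads than of the lysate in both replicates. They made up 12.7% of the counts in FLAG IP replicate 1 (95% Clopper-Pearson interval 12.70% to 12.74%, counting error only) and 2.63% in replicate 2 (2.62% to 2.64%), against 0.253% (0.251% to 0.255%) and 0.331% (0.329% to 0.333%) in the FLAG Input. Both IP shares lay above both Input shares, and the 2 IP shares differed from each other by more than the 2 Inputs did. The share rose 50.3-fold in replicate 1 and 7.95-fold in replicate 2. In the control pull-down the same quotient was 10.2 and 7.31, so that replicate 2 lay within the range of the control and replicate 1 above it. The plot of shares by class gives every library.

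**Figure D1:**
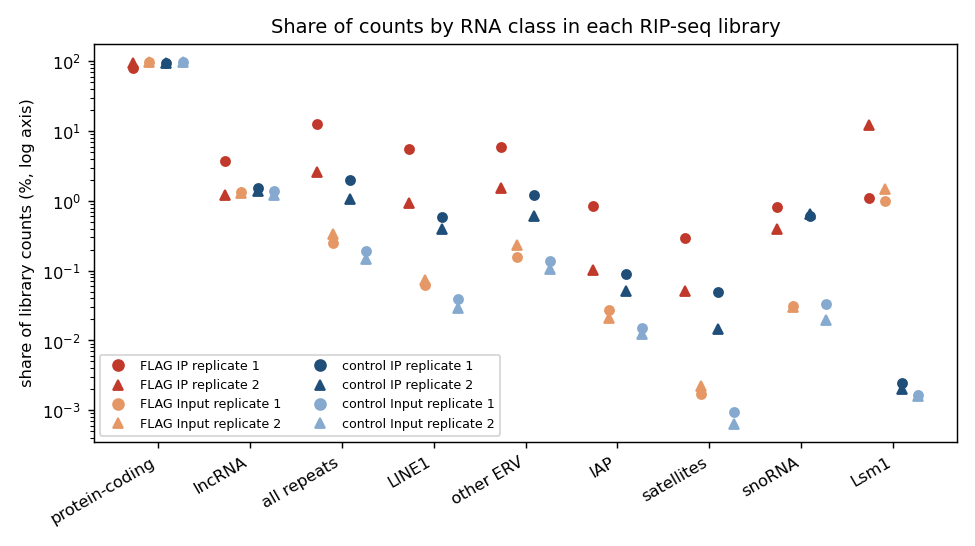
Share of all estimated counts (percent, log axis) in 9 classes for each of the 8 pull-down libraries, with circles for replicate 1 and triangles for replicate 2. Repeats take 12.7% and 2.63% of the FLAG IP against 0.253% and 0.331% of the FLAG Input, and Lsm1 takes 12.1% of FLAG IP replicate 2 alone.

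Across all features, 3584 of 17473 tested were called higher in FLAG IP than in FLAG Input, which is 20.5%, and 111 were called lower, which is 0.635%. A feature is called at an adjusted p under 0.05 (edgeR quasi-likelihood test, Benjamini-Hochberg) and a log2 ratio past 1 or -1. The adjusted p of the calls higher lay between 0.0142 and 0.05, with a median log2 ratio of 4.34, so that every call stood within a narrow band of p. The count was 2942 without FLAG IP replicate 1 and 8369 without FLAG IP replicate 2, and the count lower was 580 and 5523. It was 0 without either FLAG Input library and 2 without TMM factors, with 5192 features at an unadjusted p under 0.05 in the latter case. limma on log2(TPM + 1) gave 210 higher and 930 lower, the opposite balance. P-values here measure the spread between samples that the labels only number, and an exact test of 2 against 2 could not go below 0.333.

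By class, 257 of the 304 repeats tested rose and none fell, with a median log2 ratio of 4.13 against 0.27 over all features. Of 1113 lncRNAs tested, 443 rose and 4 fell, with a median of 2.77. Of 88 snoRNAs, 60 rose and none fell, with a median of 3.57. Of 15592 protein-coding genes, 2705 rose and 106 fell, with a median of 0.07. Without FLAG IP replicate 1 the counts higher were 214 of 303 repeats, 301 of 1105 lncRNAs, 88 of 98 snoRNAs and 2224 of 15571 protein-coding genes, with 26 lncRNAs and 543 protein-coding genes lower. Without FLAG IP replicate 2 they were 322 of 340, 1149 of 1697, 47 of 89 and 6561 of 17656, with 85 lncRNAs, 1 snoRNA and 5360 protein-coding genes lower. The counts of lncRNAs and protein-coding genes thus depended on the library kept more than those of repeats.

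**Figure D2:**
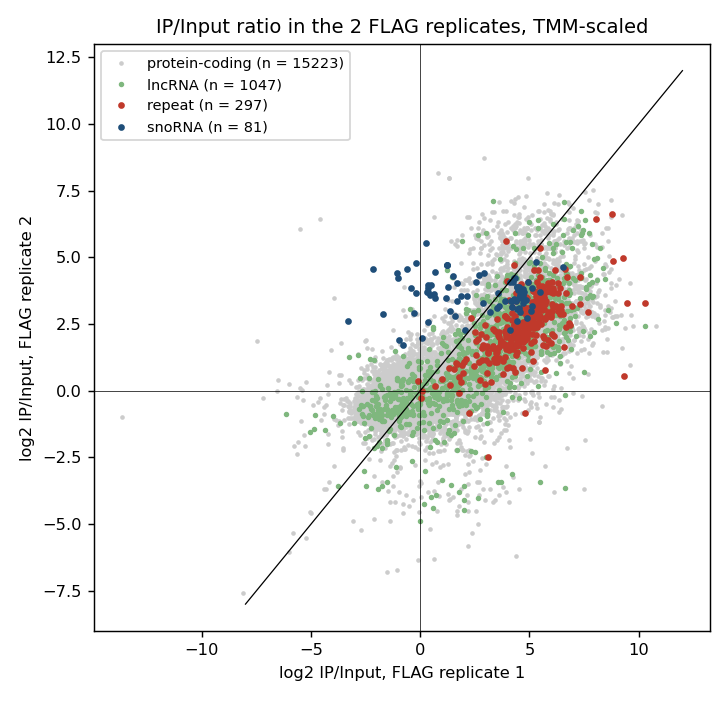
log2 IP/Input of each feature in FLAG replicate 1 (horizontal) against FLAG replicate 2 (vertical), 1 point per feature, coloured by class, with the line of equality. Most repeats lie below the line, with medians of 4.79 in replicate 1 and 2.46 in replicate 2, while a group of snoRNAs lies above it.

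Over the 17002 features the log2 ratios of the replicates correlated at a Pearson r of 0.767, for the 297 repeats among them at 0.665, and for the 81 snoRNAs at -0.00013. FLAG and control replicates correlated at 0.660 to 0.739 over 15088 features, nearly as highly as the 2 FLAG replicates. The ratio was above 2 in both replicates for 4983 features, which is 29.3%, and below 0.5 in both for 516, which is 3.03%. Another 4568 features were below 0.5 in replicate 1 and between 0.5 and 2 in replicate 2. Of the 297 repeats, 267 were above 2 in both and none was below 0.5 in both. The ratio had an SD across features of 2.70 in replicate 1 and 1.68 in replicate 2 on the log2 scale, against 1.56 and 1.39 in the control.

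Among the satellites, the tandem repeats of centromeric and pericentromeric DNA, 4 of the 5 tested of 7 listed were called higher (3 of 5 without FLAG IP replicate 1, 5 of 7 without FLAG IP replicate 2). GSAT_MM, the major satellite, was at 1690 and 602 CPM in the FLAG IP and at 17.2 and 25.5 CPM in the FLAG Input. Both IP values lay above both Input values, and the ratio was 98.3 (95% interval 88.8 to 109, counting error only) in replicate 1 and 23.6 (21.7 to 25.7) in replicate 2. The log2 ratio was 5.75 ± 1.28 with an adjusted p of 0.020 (edgeR, n = 2 and 2). In the control pull-down GSAT_MM was at 459 and 135 CPM in the IP and at 8.78 and 5.67 CPM in the Input, a ratio of 52.3 and 23.9. The FLAG ratio and the control ratio differed by a log2 of 0.38 ± 0.97, which did not pass the test of the difference (unadjusted p = 0.703, adjusted p = 0.908, edgeR).

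SATMIN, the minor satellite of the centromere, was far less abundant, at 14.7 and 1.19 CPM in the FLAG IP and 0.317 and 0.0868 CPM in the FLAG Input. Its log2 ratio was 5.26 ± 1.42 (adjusted p = 0.028, edgeR). Without FLAG IP replicate 1 it was 2.56, and with limma the call was lost (adjusted p = 0.113). Its ratios were 46.3 and 13.7 in the FLAG replicates and 4.99 and 17 in the control. IMPB_01 was at 39.4 and 4.33 CPM against 0.941 and 0.238 CPM, and SQR4_MM at 31.9 and 5.11 CPM against 0.741 and 0.727 CPM. Each of these satellites was higher in both IPs than in both Inputs, and each was highest in FLAG IP replicate 1. ZP3AR_MM was at 0.651 and 0.0847 CPM against 0.634 and 0.260 CPM and was not called. SQR1_MM and SQR2_MM did not pass the filter on low counts.

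Of the 45 LINE1 consensus sequences, the autonomous non-LTR retrotransposons, 44 were called higher, with a median log2 ratio of 4.86, and 44 and 45 were called without FLAG IP replicate 1 and 2. L1MdTf_III stood at 2723 and 966 CPM in the FLAG IP and 63.2 and 64.1 CPM in the FLAG Input, and L1MdA_I at 2388 and 727 CPM against 43.6 and 53.8 CPM. Ratios were 43.1 and 15.1 for L1MdTf_III and 54.8 and 13.5 for L1MdA_I, so replicate 1 exceeded replicate 2 in both. In the control the ratios of L1MdTf_III were 16.3 and 17.3 and those of L1MdA_I were 12.1 and 14.5, close to FLAG replicate 2. L1MdMus_II, L1MdV_II and L1VL2_5 were among those with the smallest adjusted p of the family, with log2 ratios of 4.86 ± 0.74, 5.14 ± 0.79 and 3.80 ± 0.61.

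Endogenous retroviruses, which keep the LTRs and internal genes of old retroviral insertions, were also mostly called. Of 24 IAP sequences 19 were called higher (median log2 ratio 3.42), and of the 224 other ERV sequences tested 186 were (median 3.98). Without FLAG IP replicate 1 and 2 the medians were 2.08 and 3.85 for IAP and 2.21 and 4.52 for the other ERVs. In the control pull-down 15 of 24 IAP and 98 of 192 other ERV sequences were called higher, against 13.5% of all features. IAPEZI, an IAP internal region, was at 1759 and 453 CPM against 120 and 94.7 CPM. Its log2 ratio of 3.36 ± 1.19 did not pass (adjusted p = 0.063, edgeR), though it did with DESeq2 (adjusted p = 9.36e-05). Without FLAG IP replicate 1 and 2 the log2 ratio was 2.11 and 3.79. Its IP/Input ratios were 14.6 and 4.78 in the FLAG replicates and 7.57 and 5.32 in the control. IAPLTR1_Mm stood at 65.0 and 13.1 CPM in the FLAG IP, and the FLAG Input values were 0.587 and 0.661 CPM, a called log2 ratio of 5.96 ± 0.83.

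MERVL, the retrovirus whose RNA marks the onset of transcription in the mouse embryo, was at 20125 and 14324 CPM in the FLAG IP but at 456 and 1638 CPM in the FLAG Input. Both IPs were above both Inputs, and the ratio was 44.1 in replicate 1 and 8.75 in replicate 2, against 18 and 17.5 in the control. The log2 ratio of 4.04 ± 4.21 did not pass (adjusted p = 0.489, edgeR). MERVL was called with DESeq2 (adjusted p = 1.89e-06), with limma (0.0228) and with all 8 libraries in the edgeR fit (0.0493). The log2 ratios of these fits lay between 3.85 and 4.34, so the call depended on the fit. Without FLAG IP replicate 1 and 2 the log2 ratio was 3.81 and 4.03. ORR1B1, an LTR of the MaLR group, was at 473 and 85.2 CPM against 41.6 and 31.5 CPM, with a log2 ratio of 2.93 ± 0.84 (adjusted p = 0.032, edgeR). RLTR2aIAP_MM was at 115 and 35.7 CPM against 11.7 and 11.9 CPM, with a log2 ratio of 2.68 ± 0.58 (adjusted p = 0.020, edgeR). For these LTRs the control ratio was lower, at 1.85 and 1.67 for ORR1B1 and 2.16 and 2.24 for RLTR2aIAP_MM, and the differences of 2.09 ± 0.84 and 1.53 ± 0.61 on the log2 scale had unadjusted p of 0.0295 and 0.0275 and an adjusted p of 0.790 (edgeR). RLTR4I_MM, a leukaemia virus-like internal region and among the most abundant ERV features of the Input, was at 506 and 220 CPM against 313 and 196 CPM, and its log2 ratio of 0.51 ± 0.83 was not called. The SINE B2 was called at a log2 ratio of 3.18 ± 0.66, with 136 and 30.4 CPM against 8.98 and 9.34 CPM. The IP/Input ratios of B2 were 15.1 and 3.25 in the FLAG replicates and 7.34 and 6.02 in the control. B1F was not called, and its log2 ratio was -0.18 and 3.19 without FLAG IP replicate 1 and 2.

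**Figure D3:**
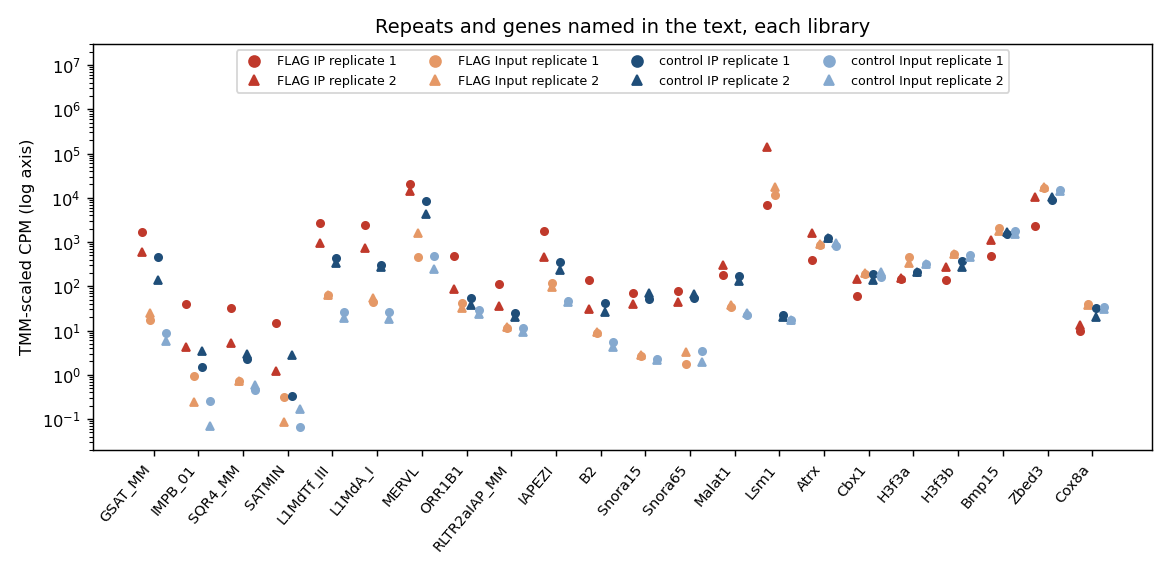
TMM-scaled CPM (log axis) of 22 repeats and genes in each of the 8 pull-down libraries, with circles for replicate 1 and triangles for replicate 2. GSAT_MM stands at 1690 and 602 CPM in the FLAG IP, and the FLAG Input values were 17.2 and 25.5 CPM, while Zbed3 and Bmp15 are lower in both FLAG IPs than in either FLAG Input.

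SnoRNAs were the class in which the replicates parted by kind. They made up 0.826% (0.820% to 0.832%) and 0.399% (0.396% to 0.402%) of the FLAG IP counts and 0.0311% (0.0304% to 0.0317%) and 0.0302% (0.0296% to 0.0309%) of the FLAG Input counts. All 34 H/ACA snoRNAs with enough counts had a ratio above 2 in both replicates, with a median log2 ratio of 4.53 in replicate 1 and 3.52 in replicate 2, and 33 of the 34 tested were called higher. The 44 C/D snoRNAs had a median of 0.66 in replicate 1 and 3.69 in replicate 2, and 24 of the 50 tested were called. In replicate 1, 12 of the 44 C/D snoRNAs were below a ratio of 1, and in replicate 2 none was. The ratio was higher in replicate 2 for 40 of the 44 C/D snoRNAs and for 1 of the 34 H/ACA snoRNAs. In the control the 2 kinds stood together, with medians of 4.02 and 5.03 for these H/ACA snoRNAs and 4.12 and 5.18 for these C/D snoRNAs.

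C/D snoRNAs were shorter, with a median of 71.5 nt against 120.5 nt for the H/ACA snoRNAs. The 5 C/D snoRNAs over 100 nt had a median log2 ratio of -0.41 in replicate 1 and 3.95 in replicate 2. No test of kind was made in replicate 1, which is 1 pair of libraries. Across the 81 snoRNAs, length and log2 ratio had a Spearman rho of 0.454 in replicate 1 and -0.011 in replicate 2, given as a description of genes from the same libraries.

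**Figure D4:**
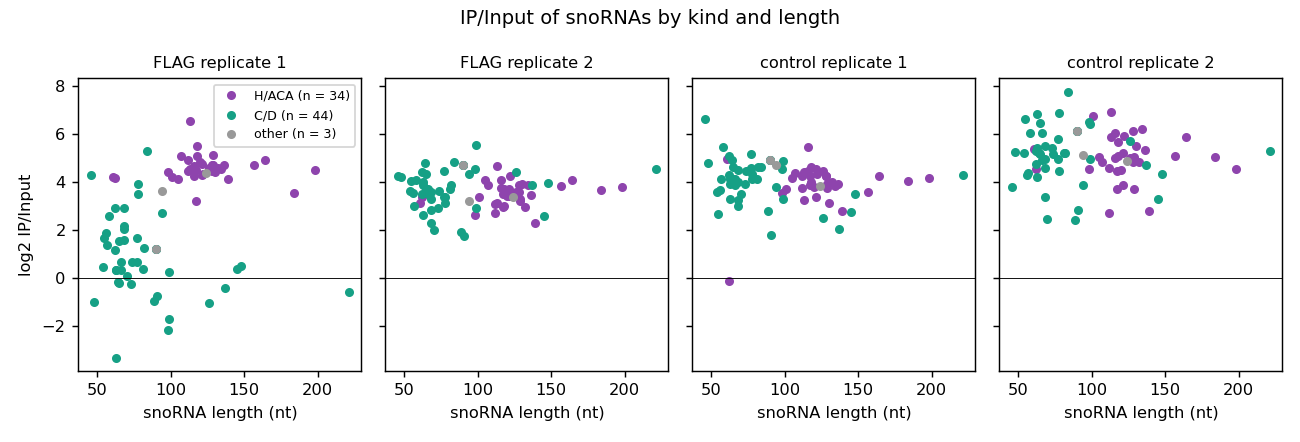
log2 IP/Input of 81 snoRNAs (vertical) against length in nt (horizontal) in each FLAG and control replicate, coloured by kind, 1 point per snoRNA. In FLAG replicate 1 the C/D snoRNAs sit at a median of 0.66 and the H/ACA snoRNAs at 4.53, while in FLAG replicate 2 the medians are 3.69 and 3.52.

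Snora15, whose sequence is above, was at 69.4 and 39.0 CPM in the FLAG IP and 2.72 and 2.86 CPM in the FLAG Input, with a log2 ratio of 4.28 ± 0.53 (adjusted p = 0.014, edgeR). Snora65 was at 78.0 and 43.2 CPM against 1.72 and 3.3 CPM, with a log2 ratio of 4.59 ± 0.57. Snora23 was at 65.8 and 72.5 CPM against 5.66 and 5.68 CPM. Each of these H/ACA snoRNAs was higher in both IPs than in both Inputs, and none of them differed from the control ratio by a called amount, the log2 differences being -0.45 for Snora15, 0.11 for Snora65 and -0.92 for Snora23.

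Snord22, a C/D snoRNA, was at 7.21 CPM in FLAG IP replicate 1 and 488 CPM in replicate 2, against 15.2 and 22.6 CPM in the FLAG Input. Snord87 was at 23.0 and 195 CPM against 14.7 and 16 CPM, and Snord15b at 28.7 and 159 CPM against 22.5 and 26.4 CPM. For all 3 the value in FLAG IP replicate 2 was above both Inputs and far above that in replicate 1. Snord87 was called (log2 ratio 2.83 ± 0.80, adjusted p = 0.031, edgeR), and Snord22 (adjusted p = 0.062) and Snord15b (adjusted p = 0.063) were not. Without FLAG IP replicate 1 the median log2 ratio of the C/D snoRNAs tested was 3.71, and without FLAG IP replicate 2 it was 0.40. Over all features these medians were 0.07 and 0.87. In the control pull-down 59 of the 60 C/D snoRNAs tested were called higher, against 13.5% of all features. The 9 small Cajal body RNAs, guides for the modification of spliceosomal RNA, all had a ratio above 2 in both replicates, and 5 were called higher. Over all features these shares were 29.3% and 20.5%. In the control pull-down all 9 were also above 2 in both replicates, and all 9 were called higher. Their median log2 ratios were 3.08 and 3.10 in the FLAG replicates and 3.67 and 3.92 in the control.

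The lncRNA hosts from whose introns snoRNAs are cut (the Snhg genes and Gas5) rose in 10 of 15 tested, with a median log2 ratio of 3.34. This median was 2.72 and 3.69 without FLAG IP replicate 1 and 2. Their median Input was 0.900 CPM, and 48.1% of all features between 0.1 and 1 CPM were called higher. In the control pull-down 9 of 15 hosts were called higher. The median log2 IP/Input of the hosts was 3.73 and 2.54 in the FLAG replicates and 3.16 and 1.66 in the control. Snhg8 was at 18.0 and 18.7 CPM against 1.15 and 1.02 CPM, and Snhg14 at 23.5 and 17.3 CPM against 0.733 and 1.47 CPM. Of the 6 other abundant noncoding RNAs tested, 2 were called higher, at a median Input of 20.6 CPM. Of all features 20.5% were called higher, and 2.18% of those between 10 and 100 CPM. In the control pull-down 3 of the 6 were called higher. The list's median log2 IP/Input was -0.36 and 1.78 in the FLAG replicates and 1.89 and 2.25 in the control. Malat1, a nuclear speckle RNA, was at 184 and 297 CPM against 33.2 and 38.4 CPM (log2 ratio 2.75 ± 0.64), and Neat1, the scaffold of paraspeckles, at 117 and 16.1 CPM against 3.27 and 3.10 CPM (4.39 ± 0.80). Snhg8, Malat1 and Neat1 were above their Inputs in both replicates.

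The ratio followed the level in the lysate in every replicate. Features with a mean of up to 0.1 CPM in the FLAG Input had a median log2 IP/Input of 6.04 in replicate 1 and 4.42 in replicate 2, and 769 of 845 tested were called higher, though a feature that low passed the filter mostly through its IP counts. Between 10 and 100 CPM the medians were -0.85 and -0.39, with 116 called higher and 99 lower of 5325. Over 1000 CPM they were -2.19 and -0.50, with no call among 139. The control replicates moved from 4.43 and 3.74 in the lowest class, over the 90 features seen there too, to -0.37 and -0.24 in the highest. The range was widest in FLAG replicate 1. Among protein-coding genes alone, 1475 of 3101 were called higher between 0.1 and 1 CPM (47.6%), 563 of 4134 between 1 and 10 CPM (13.6%), 48 of 5081 between 10 and 100 CPM (0.945%) and 0 of 2469 between 100 and 1000 CPM, where the median log2 ratio was -0.98. Counts in the gene lists are therefore given with the median Input level of the members tested.

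**Figure D5:**
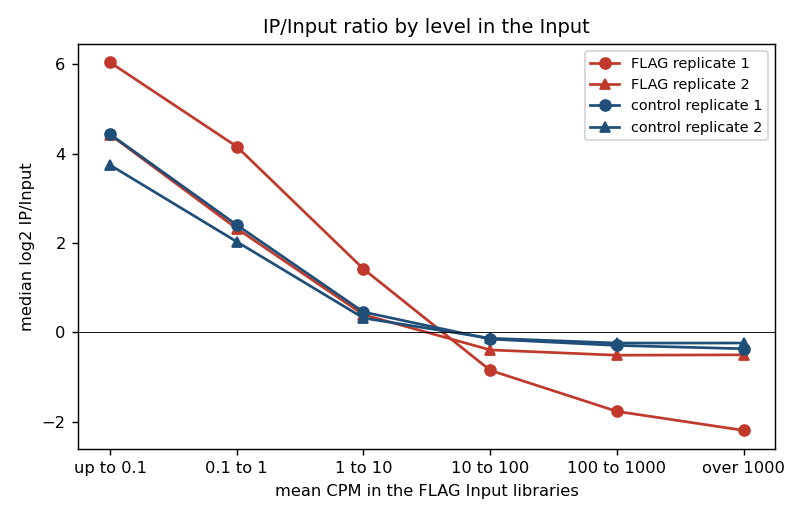
Median log2 IP/Input (vertical) of tested features in 6 classes of mean CPM in the FLAG Input (horizontal), for each FLAG and control replicate. FLAG replicate 1 runs from 6.04 to -2.19, and FLAG replicate 2 from 4.42 to -0.50.

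Compared within classes of Input level, repeats had more calls than protein-coding genes, but not always a higher ratio. Between 0.3 and 1 CPM 61 of 76 repeats and 792 of 2051 protein-coding genes were called higher, with median log2 ratios of 4.31 and 3.16. Between 3 and 10 CPM the counts were 49 of 55 and 169 of 2198, with medians of 3.63 and 0.43. Between 0.1 and 0.3 CPM they were 26 of 30 and 683 of 1050, with medians of 4.81 and 4.25, and in FLAG replicate 2 the medians of this class were 3.04 and 3.05. In the control the median of this class was 3.03 for repeats and 3.47 for protein-coding genes, and between 3 and 10 CPM it was 1.62 and 0.16. Features of up to 0.3 CPM, and some of up to 1 CPM, passed the filter on low counts mostly through their IP counts. High ratios and calls in these classes were therefore partly set by the filter. These are descriptions within classes, and no test of class against level was made.

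Zygote and oocyte mRNAs were abundant in the Input, at a median of 666 CPM over 12 markers. None of the 12 zygote and oocyte markers was called, and all 12 had a log2 ratio below 0, as had 7905 of all 17473 features, with a median of -1.35 against 0.27 over all features and -0.98 for protein-coding genes between 100 and 1000 CPM. Their summed level was 2030 and 4636 CPM in the FLAG IP and 8759 and 8359 CPM in the FLAG Input, with no marker at 0 in any of the 8 libraries. Bmp15, an oocyte-secreted growth factor, was at 477 and 1087 CPM against 2057 and 1759 CPM, a ratio of 0.232 and 0.618 (log2 ratio -1.29 ± 1.46, adjusted p = 0.525, edgeR). Zbed3, of the subcortical maternal complex, was at 2283 and 10344 CPM against 16754 and 17127 CPM. In both genes the 2 groups did not overlap and replicate 1 was the lower IP. The marker medians were -2.23 without FLAG IP replicate 2 and -0.92 without FLAG IP replicate 1. Protein-coding genes between 100 and 1000 CPM had a median log2 IP/Input of -1.77 in FLAG replicate 1 and -0.51 in replicate 2.

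Markers of other cells were rare in the Input, where the median level of those tested was 0.632 CPM for cumulus and granulosa, 0.237 CPM for immune and blood, 0.757 CPM for epithelium and stroma and 0.157 CPM for liver. Of all features between 0.1 and 1 CPM in the Input 48.1% were called higher, part of them passing the filter mostly through their IP counts. The counts of these small lists are to be read beside that share. The 10 cumulus and granulosa markers summed to 57.2 and 19.0 CPM in the FLAG IP, and the FLAG Input values were 11.5 and 10.9 CPM, and 3 of 8 tested rose, with 3 markers at 0 in each Input. The 7 immune and blood markers summed to 37.3 and 7.29 CPM against 2.31 and 1.61 CPM (3 of 4 tested rose, with 2 and 4 of the 7 at 0 in the Inputs), the 6 of epithelium and stroma to 52.3 and 25.8 CPM against 5.93 and 8.16 CPM (2 of 5 rose, none at 0) and the 4 of liver to 36.9 and 7.09 CPM against 1.74 and 0.232 CPM (2 of 3 rose, with none and 2 at 0). The 7 spermatid markers summed to 9.49 and 7.37 CPM against 9.64 and 9.02 CPM, and neither of the 2 tested was called (median log2 ratio -0.57). The part of these cells in the other results was not tested. For the level of a marker in the Input, fewer cells of a type and less RNA per cell cannot be told apart in bulk samples. An IP/Input ratio sets beads against lysate and does not compare numbers of cells.

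Of the LSM, decapping and deadenylase genes, 1 was called. None of the 8 LSM genes was (median log2 ratio 0.02, with 4 above 0 and 4 below 0, at a median Input of 18.4 CPM), and Lsm3, a shared ring subunit, was at 36.9 and 39.3 CPM in the FLAG IP, and the FLAG Input values were 75 and 66.6 CPM. Of 16 decapping and P-body genes 1 rose, with a list median of -0.84 at a median Input of 111 CPM. It was Edc3, an enhancer of decapping, at 20.9 and 2.54 CPM against 0.543 and 0.521 CPM (log2 ratio 4.45 ± 1.13, adjusted p = 0.024, edgeR). Between 0.3 and 1 CPM in the Input, the level of Edc3 itself, 792 of 2051 protein-coding genes (38.6%) were called higher. None of 17 deadenylase genes was called, and all 17 had a log2 ratio below 0, with a median of -0.83. Their median Input was 199 CPM, a level at which no protein-coding gene was called higher and the median was -0.98, so these counts are near those of genes of their level. The deadenylase median was -1.98 without FLAG IP replicate 2 and -0.36 without FLAG IP replicate 1. Protein-coding genes between 100 and 1000 CPM had a median log2 IP/Input of -1.77 in FLAG replicate 1 and -0.51 in replicate 2. Btg4, the adaptor that brings the CCR4-NOT deadenylase to maternal mRNA, was at 366 and 1240 CPM against 2213 and 2343 CPM, and Cnot3, a subunit of that complex, at 207 and 784 CPM against 1194 and 1289 CPM.

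Further lists of abundant mRNAs held no calls, which at their level is near the share of protein-coding genes called (0.945% between 10 and 100 CPM and 0% between 100 and 1000 CPM). None was called among 16 maternal mRNA storage genes (median log2 ratio -0.96), 16 RNA exosome genes (-0.16), 8 genes of the subcortical maternal complex (-1.32), 10 zona pellucida and oocyte-secreted genes (-1.28), 6 Obox genes (-1.21) or 13 genes of H3K9 methylation and histone H3.3 (-0.71). Their median Input lay between 28.1 and 744 CPM. The median log2 ratio of the RNA exosome genes was 0.36 without TMM factors, against 0.88 over all features. Without FLAG IP replicate 2 the medians were -2.02 for storage genes, -2.46 for the subcortical maternal complex and -2.10 for the zona pellucida list. Without FLAG IP replicate 1 they were -0.44, -0.75 and -0.94. Protein-coding genes between 100 and 1000 CPM had a median log2 IP/Input of -1.77 in FLAG replicate 1 and -0.51 in replicate 2. Igf2bp2, which binds and stabilizes mRNA, was at 158 and 318 CPM against 728 and 568 CPM, and Fxr1 at 234 and 818 CPM against 959 and 1110 CPM. Ttc37, of the SKI complex that feeds the exosome, was at 72.8 and 244 CPM against 350 and 303 CPM, and Dis3l, a cytoplasmic exosome nuclease, at 59.1 and 117 CPM against 183 and 204 CPM. Gdf9 was at 175 and 340 CPM against 900 and 632 CPM, Obox5 at 118 and 509 CPM against 793 and 855 CPM, and Nlrp4f at 412 and 1617 CPM against 2208 and 2654 CPM. All of these were below both Inputs in both IPs, and none passed the test.

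The chromatin genes that the study names for this assay did not pass the test, but some did in other fits. H3f3a and H3f3b, which encode histone H3.3, were at 149 and 157 CPM against 457 and 344 CPM and at 140 and 269 CPM against 525 and 534 CPM. Their log2 ratios were -1.39 ± 0.77 and -1.37 ± 0.87, with adjusted p of 0.209 and 0.267 (edgeR). H3f3a was called lower with DESeq2 (adjusted p = 0.0238) and with all 8 libraries in the edgeR fit (0.0490). H3f3b was called lower with DESeq2 (adjusted p = 0.0429) and limma (0.0342). Without FLAG IP replicate 1 and 2 the log2 ratios were -1.32 and -1.66 for H3f3a and -0.94 and -2.16 for H3f3b. Cbx1, which encodes HP1β, was at 60.2 and 148 CPM against 187 and 204 CPM. Its log2 ratio of -0.91 ± 0.66 was not called, and it was -0.37 and -1.94 without FLAG IP replicate 1 and 2. Atrx, an H3.3 chaperone subunit, was below its Input in replicate 1 and above it in replicate 2, at 400 and 1584 CPM against 855 and 920 CPM. Its log2 ratio of 0.16 became -1.39 without FLAG IP replicate 2 and 0.87 without FLAG IP replicate 1. Setdb1, an H3K9 methyltransferase from the list of H3K9 methylation genes, was at 124 and 381 CPM against 525 and 572 CPM.

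The shares called in the housekeeping lists lay below the 20.5% of all features and the 17.3% of protein-coding genes called higher, though most ribosomal protein and proteasome genes were above 10 CPM, where fewer were called (0.945% between 10 and 100 CPM). Of 83 cytosolic ribosomal protein genes tested 6 rose (7.23%) and none fell, with a median log2 ratio of 0.11 and a median Input of 25.3 CPM. The median log2 ratio was 0.03 and 0.18 without FLAG IP replicate 1 and 2. In the control pull-down 16 of 83 were called higher, against 13.5% of all features. Rpsa was at 40.7 and 28.7 CPM against 5.29 and 4.04 CPM, Rpl18 at 25.2 and 24.6 CPM against 3.53 and 3.60 CPM, and Rps19 at 18.4 and 15.7 CPM against 1.81 and 1.5 CPM. For these 3 the ratio was alike in both replicates, for example 7.14 and 6.82 for Rpl18, whose control ratios were 13.8 and 5.85. Of 76 mitochondrial ribosomal protein genes 2 rose (2.63%, median -0.59, median Input 18.3 CPM), Mrpl49 at 26.3 and 7.71 CPM against 2.08 and 2.82 CPM and Mrpl27 at 34.7 and 9.45 CPM against 4.05 and 4.44 CPM, the latter not called without FLAG IP replicate 1. Of 45 proteasome genes 2 rose (4.44%, median -0.76, median Input 46.1 CPM), the thymus-type subunit gene Psmb11 and the activator gene Psme1, with log2 ratios of 4.09 ± 0.85 and 4.16 ± 1.11.

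Of 82 respiratory chain genes tested 2 fell and none rose (median -0.38, median Input 10.0 CPM). Of all features 0.635% fell and 20.5% rose, and between 10 and 100 CPM 99 of 5325 fell. The list median was -0.39 and -0.60 without FLAG IP replicate 1 and 2, and -0.02 with at least 50 counts. Without TMM factors it was 0.18, against 0.88 over all features, so its sign depended on the scaling. Cox8a, a subunit of cytochrome c oxidase (chromosome 19), was at 9.56 and 13.4 CPM against 40.7 and 38.6 CPM, a log2 ratio of -1.79 ± 0.46 (adjusted p = 0.025, edgeR), and Cox6b2, the testis form of another subunit, was at 3.21 and 3.47 CPM against 19.6 and 13.6 CPM (-2.31 ± 0.68). Of 57 replication-dependent histone genes tested 1 rose and 2 fell (median -0.18, median Input 3.87 CPM), to be read beside the same shares of all features. The list median was 0.04 and -1.16 without FLAG IP replicate 1 and 2, and 0.42 without TMM factors. In the control pull-down 10 of 53 histone genes tested were called higher, against 13.5% of all features. H2ac12 was at 7.81 and 15.6 CPM against 32.8 and 41.2 CPM, and H4c3 at 21.1 and 44.5 CPM against 125 and 88.8 CPM. H2bc21, a gene with a long transcript of 2667 nt, rose from 0.0453 and 0.174 CPM to 6.53 and 1.78 CPM. Histone genes are near copies of each other, so that their counts are uncertain.

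Among the 10 genes of the 2-cell families that were tested, 2 rose, Tdpoz8 and Tdpoz2, both at an adjusted p of 0.050 (edgeR) and under 4 CPM in every library, a share of 20% that is near the 20.5% of all features. Tdpoz8 was not called without FLAG IP replicate 1. The family has near-identical copies, so these counts are uncertain too. Of 1455 olfactory and vomeronasal receptor genes, which zygotes are not known to use, 78 passed the filter, and 38 of these rose (48.7%) with a median log2 ratio of 3.78 at a median Input of 0.303 CPM, near the 48.1% of all features called between 0.1 and 1 CPM. The count was 25 of 76 without FLAG IP replicate 1 and 151 of 225 without FLAG IP replicate 2. In the control pull-down 5 of 39 tested rose. Vmn1r58 was at 31.9 and 6.31 CPM against 0.543 and 0.483 CPM, and Vmn2r12 at 16.8 and 9.30 CPM against 0.141 and 0.482 CPM. Receptors that passed only through the IP libraries had to differ, so these counts are read with that limit.

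Among the 2876 features called higher with a mean of at least 50 counts and no overlap, the 10 with the largest log2 ratio are named. All 10 had 0 counts in both FLAG Inputs. They thus passed the filter on low counts only through the IP libraries in which they were high. Of all features at up to 0.1 CPM in the Input, 769 of 845 tested were called higher. Gabbr2, a GABA-B receptor subunit, had 153 and 23 counts in the FLAG IP, at least 85.6-fold higher against a floor of 3 counts over the Input group. Pcdhb13, a protocadherin, had 153 and 36 counts, at least 94.1-fold, and Rgs5, a regulator of G-protein signalling, 87 and 46 counts, at least 69.7-fold. Eef1akmt4-ece2, Ankrd63, Ddn, Nkpd1, 4921509O07Rik, the repeat YREP and the transcript NM_010846, for which no gene name was matched, make up the other 7, with bounds between 67.7-fold and 184-fold. In all but Rgs5 the count in FLAG IP replicate 1 was more than 3 times that in replicate 2.

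Of the 106 features called lower with the same mean and no overlap, the 10 largest by size of change are named here. Gm38423 had 186 counts in each FLAG Input and 0 in both FLAG IPs, at least 77-fold lower, and Gm20498 had 43 and 64 against 0, at least 22-fold lower. Both were present in the control IP, at 4.96 and 6.62 CPM and at 2.71 and 4.14 CPM, but they are gene models that may share reads with other copies and are uncertain. Mettl15, a mitochondrial ribosomal RNA methyltransferase, was at 0.617 and 2.63 CPM against 12 and 10.8 CPM, and Daw1, an axonemal dynein assembly factor, at 0.925 and 2.37 CPM against 11.0 and 10.6 CPM. Clec12a, a lectin receptor, was at 4.25 and 5.59 CPM against 21.4 and 18.2 CPM. Rnase6, Chrm3 and Immp1l, with Cox6b2 and Cox8a, complete the 10. Apart from those at 0, the log2 ratios of the 10 lay between -2.82 and -1.78, and both IPs were below both Inputs in each.

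Above 10 CPM in the FLAG Input, protein-coding genes with transcripts of up to 1000 nt had a median log2 ratio of -0.91 and those over 8000 nt one of -0.42, with 17 of 375 and 0 of 428 called lower. GC content was known for 94.3% of the protein-coding genes tested. Above 10 CPM the medians ran from -0.43 at up to 40% GC to -0.86 over 60% GC. Over protein-coding genes of every Input level the order was reversed, with medians of 0.24 at up to 40% GC and 0.72 over 60% GC.

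The FLAG ratio was last set against that of the control pull-down, which shares no library with it. Of 18973 features tested for a difference between the 2 ratios, 0% were called higher and 0% lower with edgeR, while 757 and 239 had an unadjusted p under 0.05, and DESeq2 called 1 and 1. The smallest adjusted p was 0.128. Of repeats, 306 of 324 had a higher ratio in the FLAG pull-down, with a median difference of 1.61 on the log2 scale. An unadjusted p under 0.05 (edgeR) was held by 78 of these repeats. The median log2 IP/Input of repeats was 4.79 and 2.46 in FLAG replicates 1 and 2, and 2.24 and 1.94 in the control, so replicate 1 stood further from the control. Of all features 9603 of 18973 had a higher ratio, with a median difference of 0.02. Of C/D snoRNAs 4 of 63 had a higher ratio, with a median difference of -1.60, and of H/ACA snoRNAs 12 of 34, with one of -0.24. Leaving out FLAG IP replicate 2 gave 1710 higher and 4234 lower, and leaving out FLAG IP replicate 1 gave 1 and 0. Each of these counts compares an arm of 1 FLAG IP library, whose spread is taken from the other groups, and nothing more is read from them.

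In the control pull-down itself 2119 of 15740 features were called higher than in its Input, which is 13.5%, and 38 lower, which is 0.241%. Of 15355 features tested in both pull-downs, 2335 were called higher in the FLAG and 1947 in the control, and 1453 in both, which is 62.2% of the FLAG calls and 74.6% of the control calls. The FLAG calls had a median log2 ratio of 4.02 in the FLAG and 2.62 in the control. Of the 109 features called lower in the FLAG and tested in both, 0 were called lower in the control.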

How the data were processed

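RIP-seq libraries of zygotes were used, 2 each of FLAG IP, FLAG Input, control IP and control Input. Per the labels and the study's methods, the authors trimmed reads (the labels name Trimmomatic, the methods Cutadapt), checked them with FastQC and ran Salmon on an index of mm10 RefSeq transcripts and repeat consensus sequences. The deposited files hold estimated counts, TPM and lengths per feature. Salmon divides reads between similar sequences, which makes estimated counts of near copies uncertain.

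Of 37713 features, 37366 were RefSeq transcripts and 347 repeats. Estimated counts were summed by gene symbol for the 37067 transcripts found in the GRCm38.p6 annotation (299 kept their own name) and rounded, giving 25092 genes and repeats. The test was edgeR 4.0.16 (R 4.3.3) with TMM and filterByExpr, after a check on simulated counts. DESeq2 1.42.0 and limma 3.58.1 were alternatives, limma with 1 added to TPM. Standard errors are the log2 ratio over the square root of F. Tables used pandas 2.3.3, and intervals scipy 1.17.1.

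FLAG ratios pair an IP with the Input of the same number. Totals lay between 9865512 and 31586450 counts, and intervals and floors cover counting error only. Named features were Lsm1 and the RNAs the study names for this assay, all satellites, the 2 most abundant repeats of each other family, up to 10 features each way by size of change (mean of at least 50 counts, no overlap), and up to 3 members of each gene list. The members and lists were chosen with earlier results of these data known. The siRNA libraries were not used here.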

Additional observations from a re-analysis of the deposited data

How the results depend on the processing

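Features called higher and lower in FLAG IP over FLAG Input (3584 and 111) were 4289 and 406 with DESeq2, 3972 and 969 with all 8 libraries in the fit, 1087 and 1 with at least 50 counts, 210 and 930 with limma on log2(TPM + 1), 2 and 0 without TMM factors, 3934 and 180 without a filter, and 0 and 0 on single transcripts (4403 and 1131 at an unadjusted p under 0.05, edgeR). Leaving out 1 library gave 0 to 8369 and 0 to 5523. Repeats called (257) were 138 at 50 counts, 69 with limma, 0 without TMM factors and 0 to 322 without 1 library, and snoRNAs (60) 0 without TMM factors and 0 to 88. Removing TMM factors raised the median of all features by 0.61 on the log2 scale. For the difference from the control (0 and 0), DESeq2 gave 1 and 1, no filter 17 and 4, and leaving out 1 library 0 to 1710 and 0 to 4234. The control's own calls (2119 and 38) were 403 and 1 with all 8 libraries, 875 and 14 at 50 counts, 673 and 1325 with limma, 2102 and 20 without TMM factors, 2332 and 66 without a filter, 3 and 0 on single transcripts, and 574 to 3907 and 32 to 614 without 1 library. With the replicate block the FLAG calls were 3608 and 128, the differences 4 and 6 and the control calls 2587 and 72. Deviations of IP and Input with the same number correlated at 0.130 (FLAG) and 0.112 (control), over 2 pairs each, which does not show that the numbers pair the samples. A ratio above 2 in both replicates held for 1654 features at a minimum of 50 counts (4983), and one below 0.5 for 175 without TMM factors (516). The repeat share of FLAG Input replicate 1 was 0.380% of TPM (0.253% of counts). The log2 ratio changed sign for Atrx with the replicate block (-0.16) and limma (-0.10) and for ZP3AR_MM without TMM factors (0.62). It also did so in the range over leaving out 1 library for Lsm1 (-1.36 to 3.33) and Atrx (-1.39 to 0.87), both lowest without FLAG IP replicate 2, for ZP3AR_MM (-2.27 to 0.36, and 0.31 without FLAG Input replicate 1), and for RLTR4I_MM (-0.17 to 0.76) and B1F (-0.18 to 3.81), both lowest without FLAG IP replicate 1. Of 935 values for 87 named features, 628 kept their direction and side of the threshold, 255 lost the call, 43 gained one and 9 changed sign. The cause of these changes was not tested. Low Input counts limit the ratios of rare RNAs.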
